A study of Homo sapiens with 4 samples.

Results

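The genes described here build the 3′ ends of RNA polymerase II transcripts, and were followed in H929 cells after exposure to meayamicin B. They are a list of 38 genes, 27 of the cleavage, polyadenylation and termination machinery and 11 subunits of the Integrator complex. A gene counted as measured when an array row named it alone, and where several rows did, the brightest of them on average was taken. This gave 36 of the 38, out of 33616 genes named on the array, and all 36 lay above background in every array. H929 is an established human multiple myeloma cell line. Meayamicin B is a synthetic splicing inhibitor whose target is SF3B, the part of the U2 snRNP that recognises the branch site. Total RNA came from 2 samples given 3 nM meayamicin B for 8 h and from 2 samples labelled untreated, for which the labels name no vehicle. Each was hybridised to its own whole-transcript array, the labels do not say whether replicates were separate cultures, and 1 cell line was used.

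Most mRNAs end where a large complex reads the AAUAAA signal, cuts the nascent RNA and adds a poly(A) tail. CPSF recognises the signal and holds the endonuclease, CstF binds the downstream GU-rich element, and cleavage factor I binds UGUA upstream and sways which of several sites is used. After the cut, the torpedo exonuclease XRN2 degrades the RNA still attached to the polymerase, which leads to termination. Integrator is a separate cleavage complex that forms the 3′ ends of small nuclear RNAs and ends the transcription of many promoter-proximal polymerases. In plasma cells, choice of an intronic or distal poly(A) site separates secreted from membrane immunoglobulin heavy chain. Splicing of the last intron and 3′ end formation are coupled in human cells.

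The values are log2 expression, 1 per row and array. The array medians lay between 3.03 and 3.08. Background, taken as the 95th percentile of 612 negative control rows, was 5.03 and 5.13 in the meayamicin B arrays and 4.5 and 4.76 in the untreated arrays. The poly-A spike-in controls (dap, phe, thr) exceeded background only on arrays numbered 1, treated and untreated alike, and for that reason the difference within each replicate pair accompanies the group difference for the called genes of the list. All 9 plasma cell and myeloma markers examined were above background in the arrays, among them SDC1, TNFRSF17 and XBP1. Of 24 measured markers of other cell types, 10 were above background in both arrays of at least 1 group. These were 2 of 6 for T and NK cells (CD3E, NKG7), 2 of 6 for monocytes (CD68, CSF1R), 2 of 3 for erythroid cells (HBA2, HBB), 2 of 5 for fibroblasts (COL1A1, COL1A2) and 2 of 4 for epithelium (KRT8, KRT18). CD3E was at 8.51 and 8.63 under meayamicin B and at 8.29 and 8.26 untreated, and CD68 at 8.43 and 8.81 under meayamicin B and at 8.61 and 8.66 untreated. CD3D, CD2, CD8A, LYZ, LUM, DCN, EPCAM and CDH1 were below background in all arrays. The list means ran from 4.36 to 5.27 in meayamicin B arrays and from 4.33 to 4.95 in untreated arrays. None of the 24 was called by limma with either prior described next, and 3 had an unadjusted default p under 0.05, beside 13.6% of all named genes. They were LYZ, which was dim throughout, HBA2 (log2 fold change 0.50) and KRT18 (-0.50), the latter 2 above background in every array. The part of the 24 markers in the results was not tested.

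Each gene was tested with limma across all 135750 rows, in a first fit with the default prior and a second with a prior variance that follows signal level, called the trended prior. A Benjamini-Hochberg adjusted p under 0.05 counted as a call. Unless stated otherwise, "rose" and "fell" refer to the limma call with the trended prior. With the default prior 0 of the 36 genes passed, while 0.0699% of all named genes above background did, 3 lower and 7 higher. At an unadjusted default p under 0.05 there were 13 lower and 4 higher, 17 of 36 in all, beside 23.5% of genes above background (19.5% lower and 4.03% higher). With the trended prior 9 of 36 fell, or 25.0%, beside 6.53% of the 14296 named genes above background. In the same fit 2 of 36 rose, or 5.56%, beside 0.727% of genes above background. Both directions together were 11 of 36, or 30.6%, beside 7.25%. All 36 are protein-coding genes, and of the 10402 protein-coding genes above background 8.41% fell and 0.692% rose, or 9.10% in all. Neither background set was matched to the 36 for signal level, which the trended prior follows. With that prior the SE was 0.09 for the bright PAPOLA row and 0.23 for the dim CPSF4 row. A second quantile normalization of the arrays gave 6 lower and 3 higher among the 36. Over all 33616 named genes it gave 677 lower and 160 higher, against 942 and 117 without it.

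The 11 called genes were spread over 6 of the 8 roles into which the list was divided. Those that fell were RBBP6, INTS7, XRN2, INTS6, CPSF6, PAPOLG, INTS3, PAPOLA and CSTF3. SCAF4 and CSTF1 rose. The median log2 fold change over the 36 genes was -0.22, with a range of -1.33 to 0.94, beside a median of -0.09 over all named genes above background. Within replicate numbers the medians over the 36 were -0.32 and -0.28. In 18 of 36 genes both meayamicin B arrays lay below both untreated arrays, beside 39.5% of genes above background, and in 8 of 36, or 22.2%, both lay above, beside 18.9%. Those shares lie closer to the background than the shares of calls do. Over the protein-coding genes above background the median log2 fold change was -0.14. Both treated arrays lay below both untreated arrays in 45.1% of them and above in 18.1%. The values describe RNA in bulk, where fewer cells of a kind and less RNA per cell cannot be told apart.

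**Figure D1:**
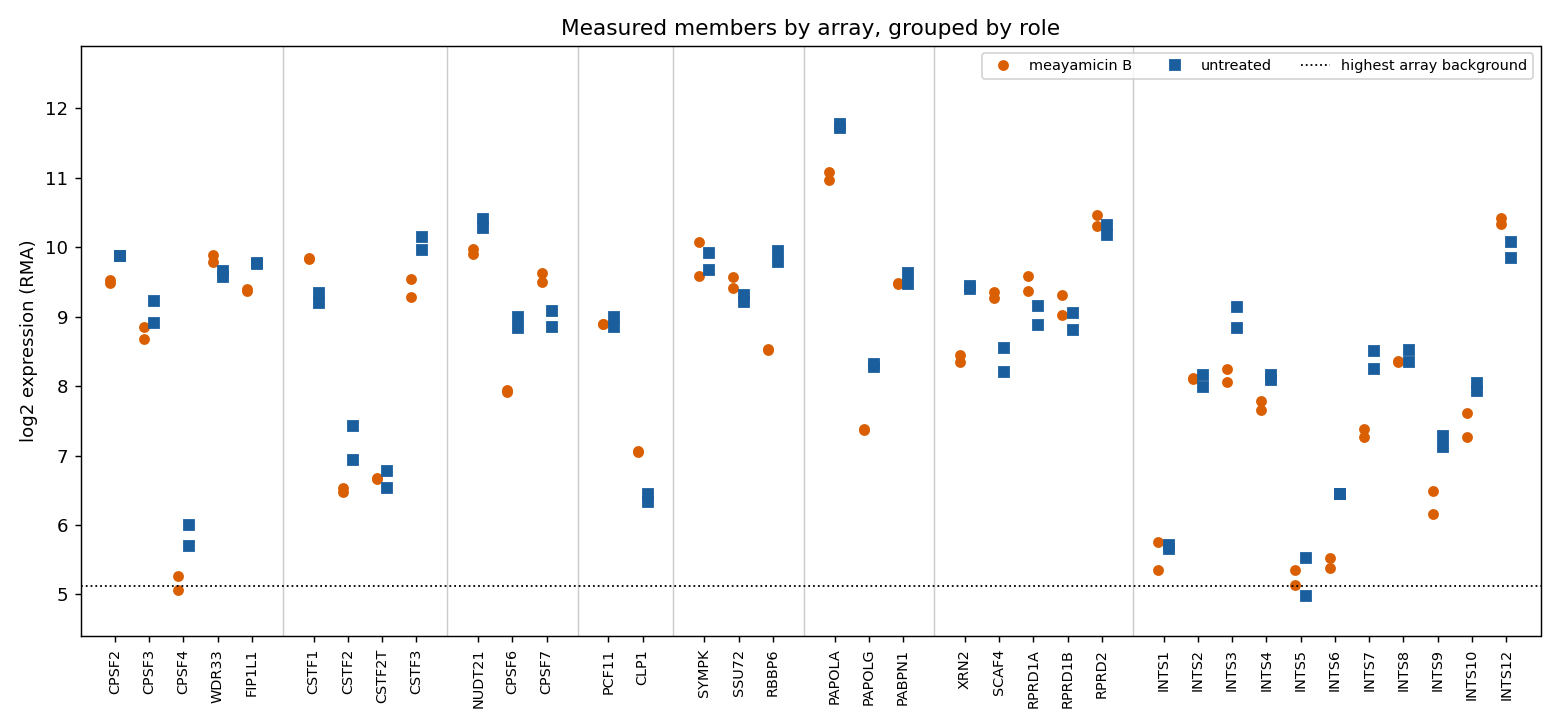
Log2 expression (vertical axis) of the 36 measured genes in each array, grouped by role along the horizontal axis. Circles are the 2 meayamicin B arrays, squares the 2 untreated arrays, and the dotted line the highest of the array backgrounds at 5.13. RBBP6 sits at 8.54 and 8.53 under meayamicin B and at 9.79 and 9.94 untreated, while SCAF4 sits the other way.

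Promoter sequence is shown for the genes that mark the span of the result: RBBP6, the gene with the lowest log2 fold change among the 36, CSTF1, the riser with a promoter entry, and the cleavage factor I paralogs CPSF6 and CPSF7, whose log2 fold changes were of opposite sign. Each line gives the 250 bases before the RefSeq start of the gene on its own strand, 5′ to 3′, from GRCh38.p14. Capitals mark matches on either strand to any of 5 motifs. They are the TATA box TATAAA, the CCAAT box CCAAT, the GC box GGGCGG, the ETS motif CCGGAAG and the cyclic AMP response element TGACGTCA.
RBBP6: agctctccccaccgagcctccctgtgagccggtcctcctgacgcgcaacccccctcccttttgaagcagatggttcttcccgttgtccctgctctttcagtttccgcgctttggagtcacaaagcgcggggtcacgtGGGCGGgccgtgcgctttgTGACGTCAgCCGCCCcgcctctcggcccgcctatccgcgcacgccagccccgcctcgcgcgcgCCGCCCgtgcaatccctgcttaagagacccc
CSTF1: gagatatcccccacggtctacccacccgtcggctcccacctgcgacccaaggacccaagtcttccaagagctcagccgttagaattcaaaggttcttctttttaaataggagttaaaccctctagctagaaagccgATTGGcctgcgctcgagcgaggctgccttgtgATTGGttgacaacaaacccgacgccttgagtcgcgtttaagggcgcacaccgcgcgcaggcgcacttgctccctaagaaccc
CPSF6: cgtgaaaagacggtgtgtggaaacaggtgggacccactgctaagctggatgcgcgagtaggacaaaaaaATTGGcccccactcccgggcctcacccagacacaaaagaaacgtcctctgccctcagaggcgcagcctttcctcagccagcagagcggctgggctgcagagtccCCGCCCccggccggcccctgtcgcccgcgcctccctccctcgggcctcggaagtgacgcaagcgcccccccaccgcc
CPSF7: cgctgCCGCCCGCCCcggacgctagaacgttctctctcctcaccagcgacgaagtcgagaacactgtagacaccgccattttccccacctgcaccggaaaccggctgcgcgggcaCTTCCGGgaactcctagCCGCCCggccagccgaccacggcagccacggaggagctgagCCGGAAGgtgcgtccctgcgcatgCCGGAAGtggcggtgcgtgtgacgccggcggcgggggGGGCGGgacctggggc

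These windows lie at chr16:24539316-24539565 (plus strand, RBBP6), chr20:56392129-56392378 (plus strand, CSTF1), chr12:69239319-69239568 (plus strand, CPSF6) and chr11:61429976-61430225 (minus strand, CPSF7). RBBP6 held 3 GC boxes and 1 cyclic AMP response element. CSTF1 held 2 CCAAT boxes and none of the other motifs. CPSF6 held 1 CCAAT box and 1 GC box, and CPSF7 held 4 GC boxes, of which 2 overlap, and 3 ETS motifs. Of the 38 listed genes 32 had a RefSeq promoter entry. Among these 32 windows, 62.5% held a GC box against 42.6% of 35116 RefSeq promoter windows of the same length. The cyclic AMP response element was in 5 of the 32, or 15.6%, against 1.65%. The ETS motif was in 25.0% against 8.52% and the CCAAT box in 37.5% against 32%. A TATA box was in 0 of 32 windows and in 10.7% of all windows. The median GC content was 63.0% for the 32 and 58.0% for all windows. The 35116 windows were not limited to protein-coding genes or to genes above background, so they are not a like set. These are descriptions of letters in the windows, and the differences in share were not tested.

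The core that reads the poly(A) signal and cuts was followed first. None of the 5 measured CPSF subunits was called by limma with either prior, 1 had an unadjusted default p under 0.05 (CPSF4), and 4 of the 5 had all meayamicin B values below the untreated ones, as 39.5% of genes above background did. CPSF2, the catalytically inactive partner of the endonuclease, was at 9.53 and 9.49 under meayamicin B and at 9.87 and 9.88 untreated. FIP1L1, which tethers poly(A) polymerase, was at 9.37 and 9.40 against 9.75 and 9.77 untreated. In both genes the arrays of a group differed by under 0.05 while the groups lay over 0.3 apart. Their log2 fold changes were -0.36 (SE 0.18) and -0.38 (SE 0.18), with limma adjusted p values of 0.205 and 0.196 with the trended prior. CPSF3, the endonuclease itself, had a log2 fold change of -0.31 (95% interval -0.79 to 0.18). CPSF4, a zinc finger subunit that contacts the signal, was at 5.07 and 5.26 under meayamicin B, close to the background of 5.03 and 5.13, and at 5.69 and 6.0 untreated. Its log2 fold change of -0.68 (SE 0.21) did not pass (limma adjusted p = 0.289 with the trended prior). WDR33, the other subunit that contacts the signal, had a log2 fold change of 0.23 (95% interval -0.21 to 0.66), 0.22 and 0.23 in the replicate pairs.

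CPSF1, the scaffold of CPSF, had no row of its own. A row naming it with 3 microRNA genes was at 6.93 and 7.24 under meayamicin B and at 7.28 and 7.53 untreated, which is a log2 fold change of -0.32 (SE 0.21, limma adjusted p = 0.653 with the trended prior). Each treated array lay below the untreated array of its number. What part of that signal comes from CPSF1 was not tested.

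Of the 4 measured CstF genes 1 rose and 1 fell, beside 0.727% and 6.53% of genes above background. CSTF1, the WD-repeat subunit CstF50, rose 1.48-fold, with 9.83 and 9.84 under meayamicin B and 9.34 and 9.20 untreated (log2 fold change 0.57, SE 0.19, limma adjusted p = 0.0478 with the trended prior and 0.391 with the default prior). It lies at chr20:56392379-56406362, and its replicate pairs differed by 0.49 and 0.64. CSTF3, the CstF77 scaffold that bridges to CPSF, fell 1.56-fold, with 9.55 and 9.28 under meayamicin B and 10.14 and 9.97 untreated (chr11:33084584-33161480). The log2 fold change of CSTF3 was -0.64 (SE 0.20), with a limma adjusted p of 0.0462 with the trended prior, and -0.59 and -0.69 in the replicate pairs. The groups overlapped in neither subunit, and both calls sit just under the threshold. CSTF1 was not called in any fit that left out 1 array, where its limma adjusted p ran between 0.101 and 0.273 with the trended prior, and CSTF3 was called only without treated replicate 1, with a range of 0.0320 to 0.226.

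CSTF2, the RNA-binding CstF64 subunit encoded on the X chromosome, was at 6.47 and 6.53 under meayamicin B and at 7.42 and 6.93 untreated. The untreated arrays differed from each other by more than the lower of them did from the treated arrays. CSTF2 thus differed by -0.67 on the log2 scale (SE 0.22), -0.95 and -0.40 in the replicate pairs, and its limma adjusted p was 0.222 with the trended prior. CSTF2T, its autosomal paralog, is an intronless gene that arose by retroposition. It was at 6.66 and 6.68 under meayamicin B and at 6.78 and 6.53 untreated, and the groups overlapped. Its log2 fold change was 0.01 (95% interval -0.45 to 0.47). Within each array the log2 difference of the CSTF2 row from the CSTF2T row shifted by -0.68 between meayamicin B and untreated arrays, and with 2 arrays a group an exact permutation test cannot go below p = 0.333 (two-sided), so this shift was not tested further.

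Cleavage factor I is a tetramer of NUDT21 with either CPSF6 or CPSF7, and the log2 fold changes of the large subunits were of opposite sign. CPSF6, the CFIm68 subunit, fell 1.99-fold, with 7.92 and 7.94 under meayamicin B and 8.84 and 9.0 untreated (chr12:69239569-69274358). The limma adjusted p was 0.00960 with the trended prior and 0.152 with the default prior, for a log2 fold change of -0.99 (SE 0.19) that was -0.92 and -1.06 in the replicate pairs. Without untreated replicate 2 CPSF6 was not called (limma adjusted p = 0.0837 with the trended prior). CPSF7, the CFIm59 subunit, was at 9.63 and 9.50 under meayamicin B and at 8.85 and 9.08 untreated, a log2 fold change of 0.60 (SE 0.19, chr11:61402729-61429975). Both treated arrays lay above both untreated ones, but the limma adjusted p was 0.0626 with the trended prior. The log2 difference of the CPSF6 row from the CPSF7 row shifted by -1.59 between meayamicin B and untreated arrays, a quantity that a shift of a whole array leaves unchanged. For this shift too the smallest exact two-sided permutation p is 0.333. NUDT21, the CFIm25 subunit that binds UGUA, was at 9.98 and 9.90 under meayamicin B and at 10.27 and 10.40 untreated (log2 fold change -0.40, SE 0.19, limma adjusted p = 0.137 with the trended prior).

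Neither measured subunit of cleavage factor II was called by limma with either prior, and CLP1 had an unadjusted default p under 0.05. PCF11, which binds the polymerase tail and promotes termination, was at 8.90 and 8.89 under meayamicin B and at 8.99 and 8.86 untreated (log2 fold change -0.03, 95% interval -0.46 to 0.41). CLP1, an RNA kinase that also acts in tRNA splicing, was at 7.06 and 7.05 under meayamicin B and at 6.34 and 6.45 untreated. The groups of CLP1 did not overlap, and its log2 fold change of 0.66 (SE 0.18) had a limma adjusted p of 0.147 with the trended prior. A second row of CLP1 was below background in every array.

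RBBP6 had the lowest log2 fold change of the list. It encodes a RING finger protein that activates cleavage by the CPSF endonuclease, and its gene lies at chr16:24539566-24572863. It was at 8.54 and 8.53 under meayamicin B and at 9.79 and 9.94 untreated. The treated arrays agreed within 0.05 and the groups lay more than 1 log2 unit apart. RBBP6 fell 2.52-fold (log2 fold change -1.33, SE 0.19, 95% interval -1.77 to -0.90, limma adjusted p = 0.00188 with the trended prior and 0.0929 with the default prior). It remained called with the trended prior in each of the 4 fits that left out 1 array, at log2 fold changes of -1.41 to -1.26. The replicate pairs differed by -1.25 and -1.42. The scaffold gene SYMPK was at 9.59 and 10.08 under meayamicin B and at 9.68 and 9.92 untreated, so the groups overlapped (log2 fold change 0.04, 95% interval -0.51 to 0.59). SSU72, a phosphatase of the polymerase tail bound to SYMPK, had a log2 fold change of 0.23 (95% interval -0.21 to 0.67).

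Both nuclear poly(A) polymerases on the list fell, as 6.53% of genes above background did. PAPOLA, the canonical polymerase that adds most poly(A) tails, was at 11.09 and 10.97 under meayamicin B and at 11.78 and 11.72 untreated (chr14:96502376-96567116). The fall was 1.65-fold (log2 fold change -0.72, SE 0.19, limma adjusted p = 0.00452 with the trended prior and 0.268 with the default prior), -0.69 and -0.75 in the replicate pairs. PAPOLG, a related nuclear polymerase, was at 7.36 and 7.39 under meayamicin B and at 8.32 and 8.27 untreated (chr2:60756268-60802086). It fell 1.89-fold (log2 fold change -0.92, SE 0.18, limma adjusted p = 0.0174 with the trended prior), but without treated replicate 2, untreated replicate 1 or untreated replicate 2 it was not called (limma adjusted p = 0.0548, 0.0999 and 0.102). Its replicate pairs differed by -0.96 and -0.88. A second, dimmer PAPOLG row was at 4.80 and 5.02 under meayamicin B, below the treated arrays' background, and at 4.74 and 4.79 untreated. When all rows of a gene were averaged PAPOLG was at -0.39 and not called (limma adjusted p = 0.563 with the trended prior). PABPN1, the nuclear poly(A)-binding protein that sets tail length, was at 9.47 and 9.48 under meayamicin B and at 9.47 and 9.62 untreated, with a log2 fold change of -0.07 (95% interval -0.51 to 0.37).

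Termination and tail-binding factors held both the largest rise of the 36 and one of the larger falls. XRN2, the torpedo exonuclease, was at 8.45 and 8.35 under meayamicin B and at 9.39 and 9.44 untreated (chr20:21303331-21389825). XRN2 fell 2.02-fold (log2 fold change -1.02, SE 0.19, limma adjusted p = 0.00532 with the trended prior and 0.144 with the default prior) and was called in each fit that left out 1 array. Its replicate pairs differed by -0.94 and -1.09. SCAF4, which binds the polymerase tail and restrains early polyadenylation in human cells, was at 9.36 and 9.28 under meayamicin B and at 8.21 and 8.55 untreated (chr21:31671000-31732118). It rose 1.92-fold (log2 fold change 0.94, SE 0.20, limma adjusted p = 0.0150 with the trended prior and 0.193 with the default prior), 1.16 and 0.73 in the replicate pairs. Without treated replicate 1 or untreated replicate 1 SCAF4 was not called (limma adjusted p = 0.0568 and 0.0753 with the trended prior). Its paralog SCAF8 had no row of its own. The row it shares with TIAM2 was at 8.18 and 8.10 under meayamicin B and at 7.88 and 8.11 untreated, a log2 fold change of 0.15 (SE 0.19) with overlapping groups.

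The RPRD proteins bind the polymerase tail and help its dephosphorylation, and 0 of the 3 genes were called by limma with either prior or had an unadjusted default p under 0.05. RPRD1A was at 9.58 and 9.38 under meayamicin B and at 9.15 and 8.88 untreated, without overlap (log2 fold change 0.46, SE 0.20, limma adjusted p = 0.213 with the trended prior). RPRD1B had a log2 fold change of 0.24 (95% interval -0.25 to 0.73) and RPRD2 of 0.13 (95% interval -0.32 to 0.59). The values of both overlapped between groups.

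**Figure D2:**
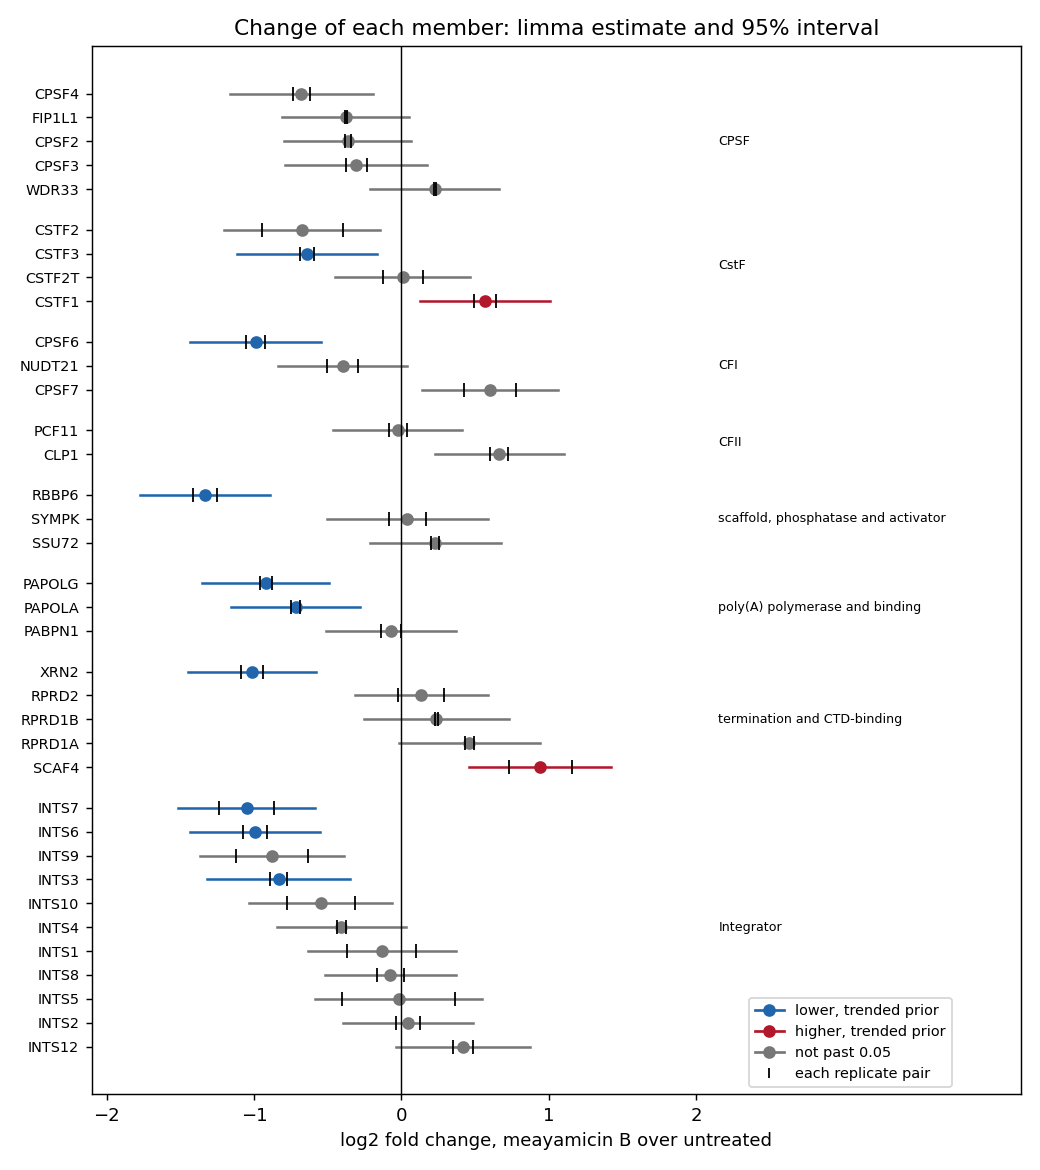
Log2 fold change of each measured gene, meayamicin B over untreated (horizontal axis), in rows grouped by role. Points are limma estimates, lines their 95% intervals with the default prior, short black ticks the differences within the replicate 1 and replicate 2 arrays, and colours the calls with the trended prior. The 9 genes that fell lie between -1.33 and -0.64, and SCAF4 and CSTF1 lie at 0.94 and 0.57.

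All 11 Integrator genes listed were measured. Their median log2 fold change was -0.41, with -0.38 and -0.40 in the replicate pairs, and 3 of 11 fell, or 27.3%, and 0 rose in limma with the trended prior. Among genes above background 6.53% fell and 0.727% rose. At an unadjusted default p under 0.05 there were 5 of 11 lower and 0 higher, beside 19.5% and 4.03% of genes above background. In 6 of 11, or 54.5%, both treated arrays lay below both untreated arrays, beside 39.5% of genes above background, and in 1 of 11 both lay above, beside 18.9%. INTS3 and INTS6, subunits that also take part in the single-stranded DNA-binding SOSS complex, both fell. INTS3 was at 8.06 and 8.24 under meayamicin B and at 8.83 and 9.13 untreated, a 1.78-fold fall (log2 fold change -0.83, SE 0.21, limma adjusted p = 0.0308 with the trended prior, chr1:153728050-153774808). INTS3 was called in 1 of the 4 fits that left out 1 array, the one without untreated replicate 1, with limma adjusted p values of 0.0495 to 0.230 over the 4. The pairs differed by -0.77 and -0.89 in INTS3 and by -1.08 and -0.91 in INTS6. INTS6 was at 5.37 and 5.53 under meayamicin B, near the background of 5.03 and 5.13, and at 6.45 and 6.44 untreated. INTS6 fell 1.99-fold (log2 fold change -0.996, SE 0.19, chr13:51334405-51453036). Its limma adjusted p was 0.04998 with the trended prior, just under the threshold, and it was not called in any fit that left out 1 array. INTS7, a subunit of the structural core, was at 7.38 and 7.27 under meayamicin B and at 8.25 and 8.51 untreated (chr1:211940403-212035557). It fell 2.07-fold (log2 fold change -1.05, SE 0.20, limma adjusted p = 0.0136 with the trended prior), -0.86 and -1.24 in the replicate pairs. Without treated replicate 2 or untreated replicate 2 INTS7 was not called (limma adjusted p = 0.0541 and 0.120 with the trended prior).

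The cleavage module of Integrator consists of INTS4, INTS9 and the endonuclease INTS11. INTS9 was at 6.48 and 6.16 under meayamicin B and at 7.12 and 7.28 untreated, a log2 fold change of -0.88 (SE 0.21) that missed the threshold (limma adjusted p = 0.0690 with the trended prior). INTS4 was at 7.78 and 7.65 under meayamicin B and at 8.16 and 8.09 untreated (log2 fold change -0.41, SE 0.19). INTS4 has copies close to it in sequence. A row named for INTS4L1 fell by 0.79 on the log2 scale (limma adjusted p = 0.0451 with the trended prior), and a row named for the pseudogene INTS4P2 was at -0.68 (limma adjusted p = 0.0721). Signal could be split between these rows and was not told apart. INTS11 had only a row shared with a microRNA gene, at 7.5 and 7.54 under meayamicin B and at 8.08 and 7.98 untreated, a log2 fold change of -0.51 (SE 0.18, limma adjusted p = 0.209 with the trended prior). In these 3 genes both treated arrays lay below both untreated arrays, as in 39.5% of genes above background.

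The other Integrator subunits did not pass. INTS10, part of the module that also holds INTS13 and INTS14, differed by -0.55 on the log2 scale (95% interval -1.03 to -0.06), with 7.27 and 7.61 under meayamicin B and 8.05 and 7.93 untreated. INTS12, a small PHD finger subunit, was at 10.42 and 10.33 under meayamicin B and at 10.07 and 9.85 untreated, the only Integrator gene on the list with both treated arrays higher (log2 fold change 0.42, SE 0.19, limma adjusted p = 0.152 with the trended prior). INTS5 and INTS8, which form the phosphatase-binding module, were at -0.02 (95% interval -0.58 to 0.55) and -0.08 (95% interval -0.52 to 0.37) on the log2 fold change scale. INTS5 is a short gene whose values lay near background, at 5.34 and 5.13 under meayamicin B and at 4.98 and 5.53 untreated. The scaffold INTS1 had a log2 fold change of -0.13 (95% interval -0.64 to 0.37), and its partner INTS2 of 0.04 (95% interval -0.40 to 0.49). INTS1 was dim too, at 5.34 and 5.76 under meayamicin B and at 5.71 and 5.65 untreated. A second row of INTS1 was below background in every array. INTS6L, a paralog of INTS6 found by its name and not on the list, fell by 0.89 on the log2 scale (SE 0.21, limma adjusted p = 0.0496 with the trended prior), with 7.13 and 6.79 under meayamicin B and 7.74 and 7.96 untreated.

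**Figure D3:**
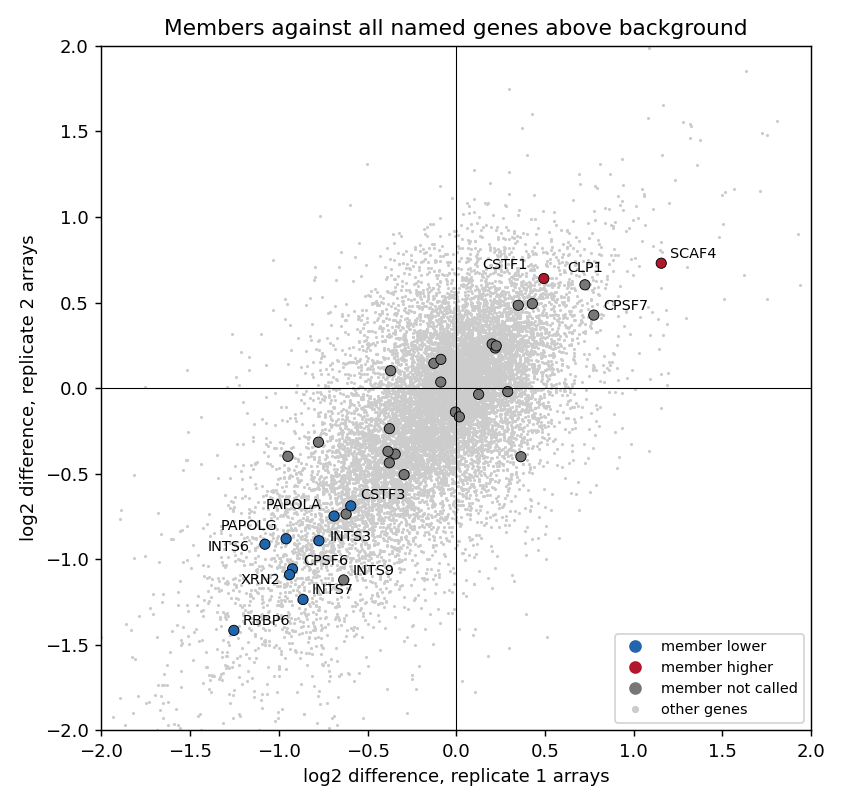
Log2 difference between meayamicin B and untreated in the replicate 1 arrays (horizontal axis) and in the replicate 2 arrays (vertical axis), for the measured genes as large points and for all 14296 named genes above background as small grey points, of which 68 lie outside the axes. The 9 genes that fell sit in the lower left, with RBBP6 at -1.25 and -1.42, and SCAF4 sits in the upper right at 1.16 and 0.73.

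The log2 fold change of each of the 36 genes was also set beside the length of the gene, taken as its genomic span in RefSeq. Spans ran from 4.10 to 122 kb with a median of 47.2 kb. The 9 genes that fell spanned 33.3 to 119 kb, with a median of 64.7 kb, and the 25 uncalled genes had a median of 34.7 kb and reached 122 kb. The 2 that rose, CSTF1 and SCAF4, spanned 14.0 and 61.1 kb. The 4 genes shorter than 10 kb were CSTF2T, CLP1, PABPN1 and INTS5, and their median log2 fold change was -0.004. Of these 4, 0 were called by limma with either prior. CLP1 had an unadjusted default p under 0.05, as did 23.5% of genes above background. The 6 genes of 10 to 30 kb had a median log2 fold change of 0.008. The 26 genes longer than 30 kb had a median of -0.37, and 16 of the 26 were not called. Among 10402 protein-coding genes above background, the median was -0.02 for 2261 genes under 10 kb. It was -0.09 for 3057 genes of 10 to 30 kb and -0.25 for 5084 genes over 30 kb. Spearman's rho between span and log2 fold change was -0.28 over the 36 genes and -0.24 over the 10402. These correlations are across genes measured on the same 4 arrays, which are not independent, and are given as a description.

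**Figure D4:**
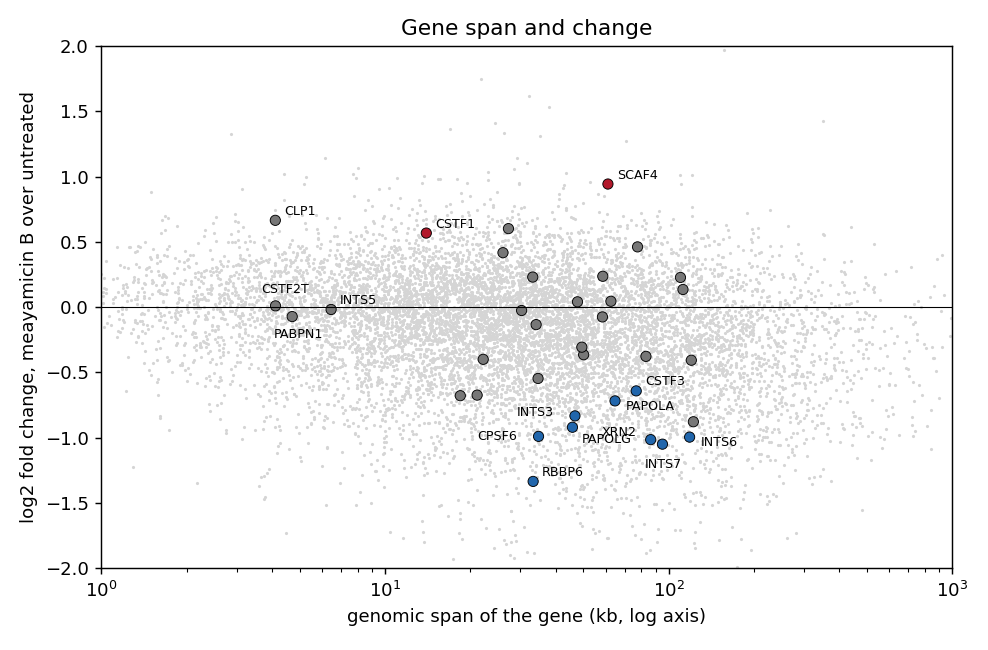
Log2 fold change, meayamicin B over untreated (vertical axis), against genomic span in kb (horizontal log axis). Large points are the measured genes, coloured blue where they fell, red where they rose and grey where they were not called, and small points are protein-coding genes above background, a few of which lie outside the axes. The 4 genes under 10 kb lie at or above -0.07. The 9 genes that fell all span more than 30 kb, as do 26 of the 36 genes.

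Factors that work beside this machinery were taken from separate lists. Of 12 genes on a list of CDK12 and other regulators of elongation and polyadenylation, 3 fell and 0 rose in limma with the trended prior, with a median log2 fold change of -0.43. Beside them stand 6.53% lower, 0.727% higher and a median of -0.09 over genes above background. CTR9, a subunit of the PAF1 elongation complex, was at 7.31 and 7.20 under meayamicin B and at 9.18 and 9.17 untreated, a 3.79-fold fall (log2 fold change -1.92, SE 0.19, limma adjusted p = 0.000909 with the trended prior and 0.0549 with the default prior). SUPT6H, a histone chaperone of elongating polymerase, fell 1.67-fold (limma adjusted p = 0.0326), and CCNK, the cyclin of CDK12 and CDK13, fell 1.60-fold (limma adjusted p = 0.0250), both with the trended prior. CDK12, a kinase that restrains intronic polyadenylation, was at 0.41 (SE 0.22) and was not called.

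Of 13 measured termination factors besides those above, 1 rose and 0 fell in limma with the trended prior, around a median log2 fold change of -0.06. That is 7.69% called, near the 7.25% of genes above background. The riser was WDR82, a partner of the polymerase phosphatase complex, at 10.23 and 10.26 under meayamicin B and at 9.57 and 9.77 untreated (1.49-fold, limma adjusted p = 0.0422 with the trended prior). Of 9 measured poly(A)-binding and tailing genes 1 fell, or 11.1% beside 6.53% of genes above background. It was TENT2, a cytoplasmic poly(A) polymerase, at 8.67 and 8.03 under meayamicin B and 9.33 and 9.38 untreated (2.01-fold, limma adjusted p = 0.0345 with the trended prior). The row that PABPC1, the cytoplasmic poly(A)-binding protein, shares with a microRNA gene differed by -0.02 on the log2 scale (SE 0.18).

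None of 10 further Integrator and phosphatase genes was called by limma with either prior, and 0 had an unadjusted default p under 0.05. The highest by moderated t were PPP2R1A, the scaffold of protein phosphatase 2A (log2 fold change 0.40, SE 0.18), and INTS15 (0.47, SE 0.22), and the lowest were the SOSS subunits NABP1 (-0.48, SE 0.22) and NABP2 (-0.32, SE 0.20). Of 3 U1 snRNP proteins, whose complex suppresses premature polyadenylation, 0 were called and 0 had an unadjusted default p under 0.05 in limma. SNRNP70 was at 0.42 (SE 0.19), SNRPA at 0.36 (SE 0.20) and SNRPC at 0.01 (SE 0.21) on the log2 fold change scale. Of 6 factors of histone pre-mRNA 3′ ends 0 were called and 1 had an unadjusted default p under 0.05 in limma. The lowest were LSM10 (-0.47, SE 0.19), of the U7 snRNP, and NPAT (-0.41, SE 0.20), a coactivator of histone genes, and the highest were ZNF473 (0.43, SE 0.19), below background in 1 array of each group, and CASP8AP2 (0.19, SE 0.25).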

How the data were processed

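Total RNA of H929 cells was labelled with a whole-transcript kit, per the labels' protocols. RMA, Transcriptome Analysis Console and build hg38 are named in the authors' entry, per the submitters' processing notes, without versions. What they deposited is log2 expression, a scale read from its range and the RMA method. RMA equalises arrays, so a shift of all RNA would be removed, and compresses dim rows. Each row summarises a whole gene, so poly(A) site use and retained introns were not measured. Precision is limited by there being 2 arrays a group, and the spread that p-values measure here may be technical.

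Of 138745 rows, 2995 control rows were left out. Row names came from the platform annotation, and symbols and coordinates from RefSeq (GRCh38.p14). For 36 of 36 measured genes the row identifier names the same chromosome as RefSeq. Groups came from the treatment label. Meayamicin B was compared with untreated in limma 3.58.1 (R 4.3.3), without a replicate block, first with the default prior and then with trend and robust options. The procedure was run on simulated data with independent noise and changes larger than any of the 36 genes showed. That run does not test calls at the sizes seen here. SEs and 95% intervals come from the default prior. In a check of pairing, the deviations from the group mean of arrays with the same number had r = 0.02 across rows and 0.10 across those above background, and no label ties a number to a batch. The genes, lists and tests were chosen with earlier results of these data known. All listed genes are named, and of the other lists those called, or else up to 2 highest and 2 lowest by moderated t. CDK12, INTS6L, the INTS4 copies and the shared INTS11 and PABPC1 rows were added after their values were seen. The first promoter window listed for a gene was used. Alternatives were a replicate block, a filter on dim rows, quantile normalization, centring on ribosomal protein genes, averaging every row of a gene and leaving out each array.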

Additional observations from a re-analysis of the deposited data

How the results depend on the processing

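Under every alternative run, the 11 called genes kept the direction of their log2 fold change. With 2 arrays a group, the calls themselves depended on the settings. With the default prior, a restriction to rows above background gave 8 calls among the 36 genes, 7 lower and 1 higher. Among all genes it gave 1096. The restriction leaves fewer rows to adjust over and also refits the prior on the rows kept, and these effects were not separated. The 8 were RBBP6, XRN2, INTS6, CPSF6, INTS7, PAPOLG, SCAF4 and INTS9, with limma adjusted p values of 0.0180 to 0.0460. Centring on ribosomal protein genes gave 19 calls among all genes with the default prior, 9 lower and 10 higher, against 3 lower and 8 higher among 11 without it. With the trended prior, the same restriction gave 16 calls among the 36 and 2319 among all genes, and the replicate block gave 16 and 2168, against 11 and 1059. The block added INTS12, NUDT21, CPSF7, RPRD1A and INTS9 and lost none. Quantile normalization gave 9 calls among the 36 and 837 among all genes. Among the 36 it lost CSTF3, INTS3 and INTS6 and added CPSF7. The median over the 36 became -0.15 and that over genes above background -0.03, from -0.22 and -0.09. Centring on ribosomal protein genes gave 9 calls among the 36, 8 lower and 1 higher, and 1050 among all genes. Among the 36 it lost CSTF3 and CSTF1. Averaging all rows of a gene gave 8 calls among the 36, 7 lower and 1 higher, without CSTF1, PAPOLG and INTS6. Leaving out 1 array left 4 to 7 calls among the 36 and 276 to 848 among all genes with the trended prior, and 0 with the default prior, at medians of -0.28 to -0.23. Among the 36 there were 7 calls when treated replicate 1 was left out and 5 for treated replicate 2, against 6 for untreated replicate 1 and 4 for untreated replicate 2. RBBP6, XRN2 and PAPOLA were called in all 4. The sign changed in genes near 0: under quantile normalization PCF11 became 0.093, PABPN1 0.021 and INTS8 0.034, and under ribosomal centring CSTF2T became -0.016. When 1 array was left out, log2 fold changes ran from -0.12 to 0.13 for CSTF2T, -0.093 to 0.040 for PCF11, -0.21 to 0.29 for SYMPK, -0.15 to 0.0030 for PABPN1, -0.34 to 0.071 for INTS1, -0.042 to 0.13 for INTS2, -0.29 to 0.26 for INTS5 and -0.16 to 0.0093 for INTS8. Why calls and signs changed between settings was not tested. CPSF4 and INTS5, within 0.3 of the treated arrays' background in at least 1 array, carry little signal over it. The treated values of the called gene INTS6, 5.37 and 5.53, also lay near that background of 5.03 and 5.13.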
